A study of Rattus norvegicus with 2 samples.

Results

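Transcription factors that establish and maintain the epidermal lineage were compared between control and siTet2/3-transfected epidermal keratinocytes, cultured from newborn rats. The set was chosen as a list of 9 gene symbols: Tp63, Tfap2a, Tfap2c, Bnc1, Trps1, Gata3, Runx1, Sox9 and Foxn1. Of these, 8 had a named probe set, out of 15037 named genes on the array, and Sox9 was not analysed here. The control group had 1 array of cells labelled control, and the siTet2/3 group had 1 array of cells given siRNAs against Tet2 and Tet3 at 1 µM each. Vitamin C was added to both groups 24 h after transfection and left for 12 h, so no value here measures the action of vitamin C itself. The cells grew in medium with 10% fetal bovine serum and 0.4 µg/mL hydrocortisone. The labels call the control non-treated and do not say whether it received another siRNA.

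TET proteins oxidise methylated cytosine, the first step in active removal of DNA methylation, and vitamin C supports their activity. Tp63 encodes p63, the factor without which stratified epithelium does not form; basal keratinocytes mostly make its short ΔN isoforms. The AP-2 factors encoded by Tfap2a and Tfap2c act beside p63 in turning surface ectoderm into epidermis. Basonuclin, from Bnc1, is a zinc finger protein of basal keratinocytes, Gata3 and Runx1 act in epidermis and hair follicle, Trps1 is a GATA-type repressor that acts in the follicle, and Foxn1 is the factor lost in nude animals.

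Each value is a deposited log2 signal, a difference is siTet2/3 minus control, and where a gene has a pair of values the control array comes first. A test needs replicates, which groups of 1 array do not have, so "lower" and "higher" describe these 2 arrays and none of the differences has a replicate check. A background floor of 5.04 log2 units was set from chemoreceptor genes, on the untested assumption that most of them are silent in these cells. A gene was counted as different when its higher value passed the floor and the arrays differed by at least 1.5-fold. Fewer cells of a type and less RNA per cell cannot be told apart in such bulk samples. Of the 8 keratinocyte markers with a named probe, all lay at 12.68 log2 units or more on both arrays, and Krt14 read 18.54 and 18.70. Their differences ran from -0.37 for Itgb4 to 0.16 for Krt14. Tet2 and Tet3 had no named probe, so the size of the knockdown was not analysed here.

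The lineage factors differed unequally: Tfap2c and Bnc1 were lower on the siTet2/3 array by more than 1.5-fold, and the 6 other factors were not past that limit in either direction. The background rate over 8103 named genes that passed the floor was 13.2% for the lower and 8.63% for the higher direction. The 2 lower factors make up 25% of the 8 measured, 1 factor fewer would make 12.5%, and 0 factors were higher. Of the 8 differences, 7 were below 0, where 55.0% of all named genes above the floor were below 0. Among the 7 was Foxn1 at -0.04, which was 0.01 after centring on the median difference of those genes. The median difference of the factors was -0.35 log2 units and that of all named genes above the floor -0.05. The factors are few and were chosen with earlier results of these data known. Neither these counts nor the median set them apart from other genes. All 8 factors were above the floor on both arrays.

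**Figure D1:**
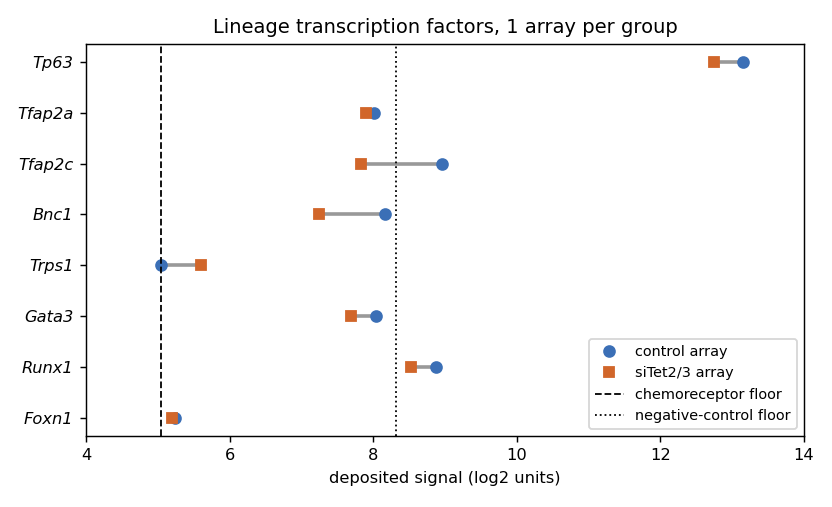
Deposited log2 signal of each lineage factor on the control array (circles) and the siTet2/3 array (squares), with the chemoreceptor floor (5.04, dashed) and the floor from negative-control probes (8.31, dotted). The longest lines belong to Tfap2c and Bnc1, while both values of Foxn1 and the control value of Trps1 lie close to the dashed floor; signals of different probe sets are not comparable with each other.

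Tp63 read 13.15 log2 units in control and 12.75 in siTet2/3 cells. It was thus 1.32-fold lower with the siRNAs, short of the 1.5-fold limit. The probe set is annotated to 6 RefSeq transcripts of the gene, so the long TA and short ΔN isoforms were not separated. Among the 500 named genes of nearest signal, 16.8% had a difference as low or lower, and their differences had a robust SD of 0.33 log2 units. The Tp63 difference of -0.41 therefore lay 1.14 robust SDs below their median.

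The AP-2 genes did not move alike. Tfap2c, which encodes AP-2γ, read 8.96 log2 units in control and 7.83 in siTet2/3 cells. It was 2.19-fold lower with the siRNAs, the only factor past 2-fold, a limit that 3.05% of named genes above the floor passed in that direction. Tfap2a, which encodes AP-2α, read 8.01 and 7.90 log2 units. The difference of Tfap2a was -0.12, that of Tfap2c -1.13, and the gap between them was -1.01 log2 units. This gap has no replicate check. Of the 500 genes nearest to Tfap2c in signal, 0.6% were as low or lower, and for Tfap2a 44.2%. Tfap2c was the only factor more than 2 robust SDs from the median of genes of like signal, at -2.34. The other AP-2 genes with a probe set, Tfap2b, Tfap2d and Tfap2e, were below the floor on both arrays.

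Bnc1 read 8.16 log2 units in control and 7.24 in siTet2/3 cells. It was 1.90-fold lower, a difference of -0.92 log2 units. Of the 500 genes of nearest signal, 5.4% were as low or lower, and 17.2% were at least 1.5-fold lower. Its relative Bnc2 was below the floor on both arrays, with 3.80 and 4.02 log2 units. The Bnc1 difference minus that of Tp63 was -0.52 log2 units.

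**Figure D2:**
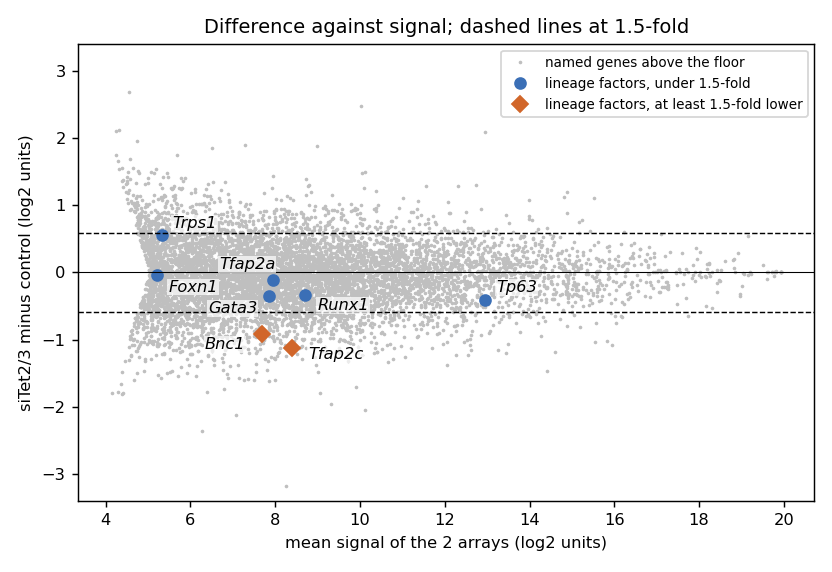
Difference between the arrays (siTet2/3 minus control, log2 units) against their mean signal for all 8103 named genes above the floor (grey) and the 8 lineage factors; dashed lines mark 1.5-fold. Tfap2c (-1.13) and Bnc1 (-0.92) are below the lower line, and Trps1 (0.56) is just under the upper one.

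Neither GATA-type factor passed 1.5-fold on the deposited scale. Gata3 read 8.04 log2 units in control and 7.68 in siTet2/3 cells, and was 1.28-fold lower. Trps1 read 5.04 and 5.60 log2 units, and was the only factor with a higher signal on the siTet2/3 array. Its difference of 0.56, or 1.47-fold, fell just short of the limit. After centring on the median difference of named genes above the floor (-0.05), it was 1.53-fold and passed, as did 10.4% of those genes. The control value of Trps1 stood at the floor itself. Among the chemoreceptor genes that set the floor, 18.4% had a difference as high or higher. For Gata3, 25% of the 500 genes of nearest signal were as low or lower. Gata1, Gata2, Gata4, Gata5 and Gata6 were all below the floor on both arrays.

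Runx1 read 8.87 log2 units in control and 8.53 in siTet2/3 cells. It was 1.27-fold lower, and 27.2% of genes of nearest signal were as low or lower. Cbfb, which encodes the partner that stabilises Runx proteins on DNA, read 12.99 and 13.06 log2 units. The other Runx genes did not share a direction, and neither passed 1.5-fold on the deposited scale. Runx2, the bone factor, read 8.49 and 8.10, and Runx3 read 5.86 and 6.38. Foxn1 read 5.24 and 5.20 log2 units, the smallest difference of the set at -0.04. The Foxn1 values exceeded the floor by only 0.20 and 0.16 log2 units, where a signal can hardly be told from background.

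**Figure D3:**
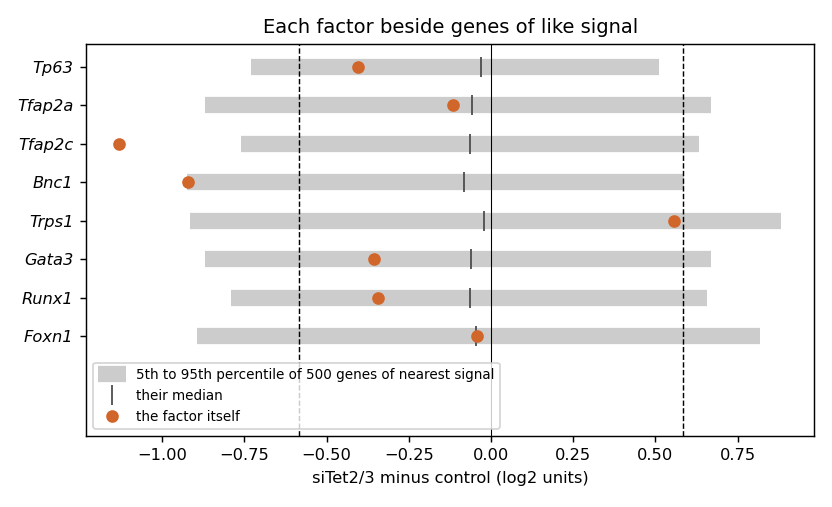
Difference of each factor (points, siTet2/3 minus control, log2 units) beside the 500 named genes of nearest mean signal; grey bars run from their 5th to their 95th percentile, ticks mark their median, and dashed lines mark 1.5-fold. Tfap2c (-1.13) is outside its bar, which ends at -0.76, Bnc1 (-0.92) is at the end of its own, and the other 6 factors are inside.

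Several of these signals lay below a stricter floor. The negative-control probes gave a higher floor of 8.31 log2 units, and only Tp63, Tfap2c and Runx1 passed it on at least 1 array. Of all 15037 named genes, 4124 passed that floor on at least 1 array. Bnc1, Gata3 and Tfap2a were below it on both arrays, and Tfap2c on the siTet2/3 array only. Against that floor Tfap2c was at least 1.57-fold lower.

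Promoters of the factors differed in their content of CpG, the dinucleotide that DNA methylation marks and TET proteins act on. RefSeq sequence of assembly GRCr8, which may not be the build behind the array, held a start site for 5 of the 8 factors, and Tfap2a, Tfap2c and Trps1 had no entry. The 250 bases upstream of the start are shown 5′ to 3′ for Bnc1, the lower factor with an entry, and for Gata3 and Tp63, which were short of the limit. Each CpG is in capitals. Bnc1 lies at chr1:145352535-145352784 on the minus strand, Gata3 at chr17:73553298-73553547 on the plus strand, and Tp63 at chr11:88554178-88554427 on the minus strand.
Bnc1: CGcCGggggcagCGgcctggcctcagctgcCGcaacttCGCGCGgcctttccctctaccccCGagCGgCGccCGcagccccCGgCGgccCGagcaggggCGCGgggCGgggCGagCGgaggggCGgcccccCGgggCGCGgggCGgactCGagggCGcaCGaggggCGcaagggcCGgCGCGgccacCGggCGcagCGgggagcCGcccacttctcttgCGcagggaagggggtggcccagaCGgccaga
Gata3: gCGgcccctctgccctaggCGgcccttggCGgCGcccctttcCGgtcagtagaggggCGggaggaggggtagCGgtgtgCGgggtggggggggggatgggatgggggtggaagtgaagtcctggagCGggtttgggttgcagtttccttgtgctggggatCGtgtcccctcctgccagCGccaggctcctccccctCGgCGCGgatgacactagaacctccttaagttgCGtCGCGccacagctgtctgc
Tp63: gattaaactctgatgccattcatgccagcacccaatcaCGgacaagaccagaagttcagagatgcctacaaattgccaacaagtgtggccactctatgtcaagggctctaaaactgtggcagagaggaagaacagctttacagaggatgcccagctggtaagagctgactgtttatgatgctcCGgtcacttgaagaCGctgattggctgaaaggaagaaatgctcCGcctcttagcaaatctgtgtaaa

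The Bnc1 sequence held 37 CpG and had a GC content of 82.0%, against medians of 5 CpG and 51.2% over 33465 RefSeq promoters. Its CpG ratio, the observed number over that expected from its C and G content, was 0.89, higher than in 87.8% of promoters. The ratio was 0.60 for Gata3 with 17 CpG, higher than in 67.1% of promoters. For Runx1, with 6 CpG in a sequence of 37.2% GC, it was 0.71, higher than in 74.6%. It was 0.29 for Tp63 and 0.27 for Foxn1, with 4 CpG each, below the median of 0.38. The Tp63 start in the table lies 366 bases from the outer end of the gene, where the long TA transcripts begin, so this sequence is not the internal promoter of the ΔN isoforms. The other starts, apart from that of Bnc1, also lie inside the annotated gene, 9314 bases from its outer end for Gata3, 6697 for Foxn1 and 138975 for Runx1, so other promoters of these genes were not examined. Methylation was not measured in these data.

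Short motifs were searched in the same 250 bases on both strands. The AP-2 motif GCCNNNGGC, which reads the same on both strands, occurred 2 times upstream of Bnc1 and 2 times upstream of Gata3, and not in the Tp63, Runx1 and Foxn1 sequences. It occurred at least once in 12.6% of all promoters, and in 37.6% of the 5070 promoters with at least 65% GC, to which the Bnc1 and Gata3 promoters belong. Of those GC-rich promoters, 9.29% held it 2 times or more. The letters of the GATA motif AGATAA, the Runx motif TGTGGT and the Sox motif ACAAAG were in none of the 5 sequences, and in 10.3%, 14.5% and 16.3% of all promoters. A match describes letters and does not show binding.

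**Figure D4:**
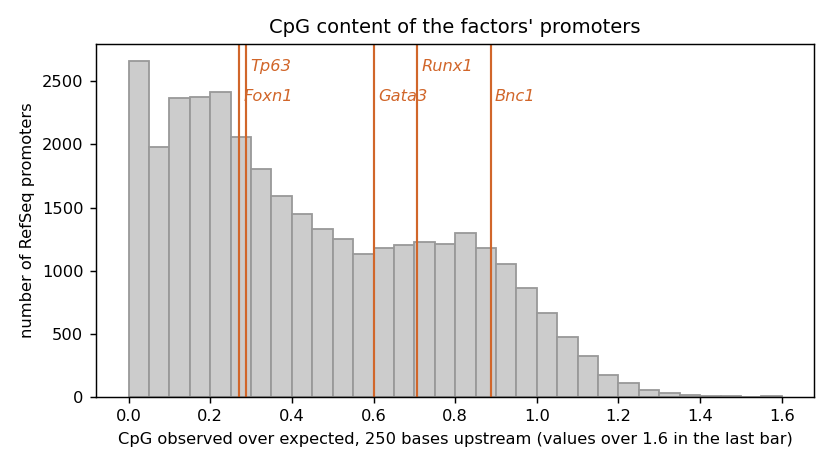
Distribution of the CpG observed over expected ratio in the 250 bases upstream of 33465 RefSeq start sites (bars, number of promoters), with vertical lines at the 5 factors that have an entry. Bnc1 lies in the upper hump at 0.89, and Tp63 (0.29) and Foxn1 (0.27) lie in the lower one. The ratios of Gata3 (0.60) and Runx1 (0.71) are in between.

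Factors of this set are also made by other cells that a skin culture can hold, such as Runx1 and Gata3 in immune cells and Tfap2a in melanocytes. Of 9 immune cell markers with a probe set, 8 were below the floor on both arrays, among them Ptprc (2.78 and 2.90 log2 units), and Cd68 read 5.52 and 5.24. Of 6 melanocyte markers only Mitf passed the floor, at 5.33 and 5.41, and Sox10, Tyr, Tyrp1, Kit and Mlana did not. Of 14 fibroblast markers, 12 were below the floor, with Col5a1 at 8.004 and 8.51 and Fbln1 at 5.90 and 6.04 log2 units. Tek passed among 6 endothelial markers (9.66 and 9.25), Isl1 among 4 Merkel cell markers (6.70 and 7.20), and 0 of 4 muscle markers did. The log2 of the summed signal of each list went from 6.85 to 6.93 for immune, from 6.57 to 6.75 for melanocyte, from 8.86 to 9.23 for fibroblast, from 9.77 to 9.41 for endothelial, from 7.32 to 7.62 for Merkel and from 4.61 to 5.17 for muscle markers. These sums pool probe sets whose signals are not comparable, and the brightest gene weighs most in each. The muscle sum holds only genes below the floor, at most 2.86 in control and 3.34 in siTet2/3 cells. The part of such cells in the differences of the lineage factors was not tested.

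Of 41 genes that p63 activates, 27 had a named probe set and 25 passed the floor. Of these 25, 1 was at least 1.5-fold lower on the siTet2/3 array, 3 were higher and 21 were neither, beside background rates of 13.2% lower and 8.63% higher. Counts this small, here and in the lists that follow, do not set a list apart from those rates. Their median difference was -0.05 log2 units, as for all named genes above the floor. The lower one was Bmp7, a bone morphogenetic protein gene, which read 9.03 and 8.27 log2 units (1.70-fold).

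The higher p63 targets were a growth factor receptor gene, a chromatin remodeller gene and a kinase gene. Fgfr3, which encodes a fibroblast growth factor receptor, read 7.04 and 7.89 log2 units and was 1.80-fold higher. Hells, a remodeller needed for DNA methylation, read 9.56 and 10.26 (1.62-fold). Chuk, which encodes the IKKα kinase required for keratinocyte differentiation, read 8.84 and 9.53 (1.61-fold). All 3 also passed 1.5-fold after centring and after removal of a trend on signal, but Fgfr3 was below the negative-control floor on both arrays, which left 2.

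The adhesion genes among the p63 targets, grouped after their values were seen, were all short of 1.5-fold. The integrin genes differed by -0.45 (Itga5, 11.30 and 10.85 log2 units), -0.37 (Itgb4, 13.05 and 12.68), -0.13 (Itga6) and -0.05 (Itgb1). The nectin gene Nectin4 differed by -0.31. Perp, which encodes a desmosomal membrane protein, differed by 0.07 and the desmocollin gene Dsc3 by 0.02. Cdh3, which encodes P-cadherin, differed by -0.03 and the tight junction gene Cldn1 by 0.18.

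Genes that p63 holds down numbered 7, of which 6 had a probe set and 4 passed the floor. The cell cycle inhibitor gene Cdkn1a read 13.03 and 12.40 log2 units and was 1.55-fold lower, but not past 1.5-fold after centring. The other 3, Cdkn2a, Igfbp3 and Hes1, differed by -0.13, 0.30 and 0.42 log2 units. The simple epithelial keratin genes Krt8 and Krt18 stayed below the floor on both arrays.

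Of 26 partner and regulator genes of these factors, 17 had a probe set and 13 passed the floor, with 1 lower, 0 higher and 12 neither. The lower one was Wwox, whose protein binds AP-2γ and keeps it in the cytoplasm. Wwox read 7.29 log2 units in control and 6.25 in siTet2/3 cells, 2.07-fold lower. The ubiquitin ligase gene Itch, whose product marks p63 for degradation, read 10.16 and 9.98. Cited2, a coactivator gene of AP-2, read 8.39 and 8.07, and Zfpm1, which encodes a GATA cofactor, 6.79 and 6.32. Others had higher values on the siTet2/3 array without passing 1.5-fold, among them the corepressor genes Tle4 (5.68 and 6.11) and Tle3 (8.67 and 9.07), the ubiquitin ligase gene Nedd4 (17.75 and 18.12) and Kctd1 (5.14 and 5.47), which encodes an AP-2 inhibitor. The median difference of the 13 was 0.06.

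Family relatives of the lineage factors were mostly not detected. Of 30 relatives 25 had a probe set and 9 passed the floor, with 1 lower, 1 higher and 7 neither. Sox4, a progenitor factor of many tissues, read 7.66 and 8.37 log2 units and was 1.64-fold higher. Sox2 read 5.71 and 4.93, below the floor on the siTet2/3 array, so it was at least 1.59-fold lower. Tp73, the closest relative of Tp63, read 5.12 and 5.17, so close to the floor of 5.04 that it can hardly be told from background. With the trend on signal removed Runx3 also passed 1.5-fold.

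Hair follicle genes were sought because Sox9, Gata3, Runx1, Trps1 and Foxn1 also act in the follicle. Of 37 such genes, 26 had a probe set, 7 passed the floor, and 0 differed by 1.5-fold in either direction. The largest difference among the 7 was that of Edar, the ectodysplasin receptor gene, with 5.26 and 5.64 log2 units. Besides Edar, the 7 included the follicle stem cell factor genes Lhx2 (5.69 and 5.55) and Nfatc1 (5.84 and 5.55). The rest were the follicle keratin genes Krt75 (6.09 and 5.84), Krt81 (5.43 and 5.07), Krt27 (5.20 on both arrays) and Krt86. Krt86 passed the floor on the siTet2/3 array only (4.92 and 5.16). The stem cell and progenitor genes Lgr5, Cd34 and Lef1 and the keratin genes Krt35 and Krt85 were among those below the floor on both arrays.

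Basonuclin is known to bind promoters of ribosomal RNA genes, which RNA polymerase I reads. Of 17 genes of that machinery 15 had a probe set and 13 passed the floor, with 0 lower, 1 higher and 12 neither. Polr1d, a subunit gene shared with RNA polymerase III, read 10.14 and 10.87 log2 units and was 1.66-fold higher. The lowest difference was that of Taf1b, a subunit gene of the promoter selectivity factor, with 6.49 and 5.94 log2 units (1.47-fold lower, short of the limit). The largest subunit gene Polr1a differed by -0.09 and the initiation factor gene Rrn3 by 0.04. The median difference was 0.08. Ribosomal RNA itself was not analysed here.

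**Figure D5:**
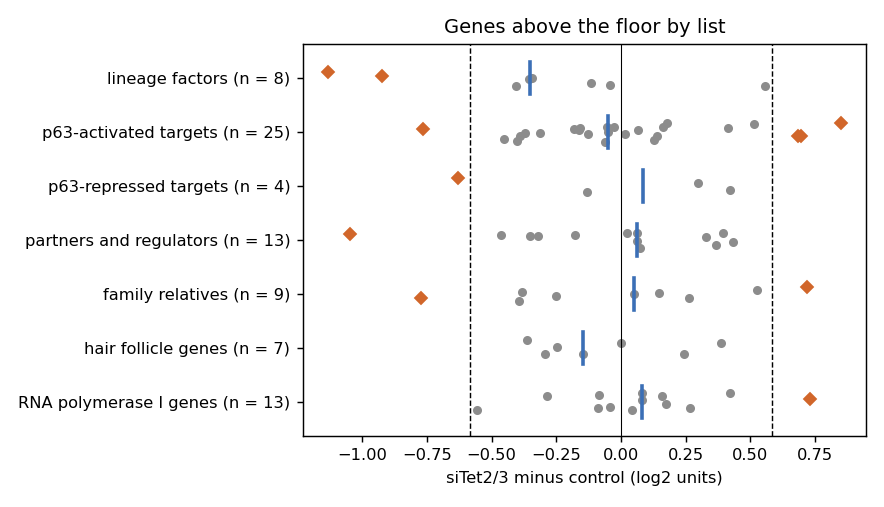
Difference between the arrays (siTet2/3 minus control, log2 units) of the lineage factors and of the genes above the floor in 6 related lists; each point is a gene, diamonds are at least 1.5-fold apart, vertical strokes mark list medians, and point height within a row carries no meaning. The median of the lineage factors is -0.35, and those of the other lists run from -0.15 for hair follicle genes to 0.08.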

How the data were processed

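RNA of 2 cultures was labelled for whole-transcript arrays, 1 array each, per the labels' protocols. The authors deposited log2 signals per probe set; the submitters' processing notes name RMA and the Transcriptome Analysis Console, while their versions, the build and the annotation are not given in sources used here. The columns had nearly equal distributions (medians 4.85 and 4.90), so folds are relative to the bulk of genes, and values ended at 19.93. A platform annotation named 15049 of 23188 gene probes, all matched by identifier to RefSeq, and probes of a gene were averaged. The floor was the 95th percentile of the higher value over 1206 chemoreceptor genes. The number of arrays limits the precision of every value.

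Genes of nearest signal were the 500 named genes closest in mean value, the factors left out. Their robust SD is the scaled median absolute deviation of their differences. It measures spread across genes between the same 2 arrays, not variation between replicates. The same SD served as the yardstick for whether an alternative moved a value. Python 3.11.15, numpy 2.4.6, pandas 2.3.3 and, for the trend on signal (lowess, span 0.3), statsmodels 0.14.6 were used. Counting was checked on simulated data with less spread between arrays than seen here. That check does not show how often spread alone passes 1.5-fold. The factors, lists and limits were chosen with earlier results of these data known. Named from each list were up to 3 genes per direction past 1.5-fold, or the one of largest difference; other list genes were chosen after their values were seen. A planned comparison of AP-2 protein sequences was not made. Older symbols were updated through RefSeq, and 1 entry of the RNA polymerase I list, Polr1has, is an antisense RNA below the floor.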

Additional observations from a re-analysis of the deposited data

How the results depend on the processing

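Across 8 alternatives, Tfap2c and Bnc1 kept their direction in each one that measured them, and Tfap2c was at least 1.5-fold lower in all of them. Both have 1 probe set and lie above the floor on both arrays, so changes of floor, limit or probe choice could not alter their differences. Only centring and removal of the trend could. These gave -1.08 and -1.07 for Tfap2c, and -0.87 and -0.86 for Bnc1. With the floor from negative-control probes 1 of the 3 factors that passed it was lower (Tfap2c, with Bnc1 left out as too dim). With a 2-fold limit 1 of 8 was lower. After centring 1 factor of 8, Trps1, was higher, as were 10.4% of named genes above the floor. The median of the factors ran from -0.41 with the negative-control floor to -0.29 with the trend on signal removed. The former is the median of 3 factors and equals the Tp63 difference. With no floor 1690 of 15037 named genes were lower and 1684 higher. With the negative-control floor these counts were 453 and 248 of 4124, and at 2-fold 247 and 147 of 8103. At 2-fold, 0 p63-activated targets were lower and 0 higher, 0 p63-repressed targets lower, 0 relatives lower and 0 higher, and 0 RNA polymerase I genes higher. After centring 0 p63-repressed targets were lower. With the negative-control floor 0 partners and 0 relatives were lower, and with a floor 1 log2 unit higher 0 relatives. With no floor 4 of 25 relatives were lower and 2 higher, and 2 of 26 hair follicle genes higher. With the trend removed 2 of 9 relatives were higher. Fewer or more genes passing the floor or the limit give these counts by construction. No paired analysis was possible because each group has 1 array, and no replicate could be left out. Among the factors, signal over background limits Trps1 and Foxn1 most.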
